A study of Drosophila melanogaster with 50 samples.

Results

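The cuticle protein families are 123 genes of *Drosophila melanogaster* whose FlyBase symbol starts with Twdl, Lcp, Ccp84A or Edg, or with Cpr followed by a digit. They make up 123 of the 17875 genes listed for ovaries and of the 17612 listed for embryos. By family, 26 are Twdl, 70 Cpr, 17 Lcp, 7 Ccp84A and 3 Edg genes. Each gene was chosen by its symbol alone, but the families as a set were selected on an earlier reading of these data. The values below are therefore given as a description. Every member was found in all 5 gene tables and was placed on a chromosome arm, with 47 on 3L, 34 on 3R, 28 on 2R, 8 on the X and 6 on 2L. The annotation calls 120 of them protein-coding and 3 (TwdlU, Lcp1Psi and Lcp65APsi) pseudogenes.

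The study knocked down Kdm3, a histone demethylase that removes methyl groups from lysine 9 of histone H3, with a short hairpin RNA. The hairpin is driven by nosGAL4, a driver active in germ cells, so the somatic cells of an ovary, which are part of every ovary sample, were not targeted. Ovaries of Kdm3 germline knockdown (GLKD) females were set against ovaries of their control sisters, with 3 libraries each for RNA, for 23- to 29-nt RNA and for each of the histone marks H3K9me2 and H3K9me3, and 2 libraries each for the chromodomain protein Rhino. Embryos laid by Kdm3 GLKD females were set against embryos laid by w GLKD females, in which the hairpin targets the white eye colour gene, with 2 libraries each for RNA at 3-5 h and for 23- to 29-nt RNA at 0-2 h and 3-5 h. All flies were kept at 25°C.

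Insect cuticle is built of chitin fibres and protein. The epidermis of the embryo secretes it in late embryogenesis, after the segments are set up. Most Cpr, Lcp and Ccp84A proteins and some Edg proteins carry the Rebers and Riddiford consensus, a stretch that binds chitin. Tweedle (Twdl) proteins form a separate insect family, named after a TwdlD mutation that makes the body short and stout. Lcp stands for larval cuticle protein, and Edg for ecdysone-dependent gene. RNAs of 23 to 29 nt have the length of piRNAs, which guide silencing of transposable elements in the germ line. Rhino marks the dual-strand clusters of the germ line that give rise to piRNAs.

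The deposited level of a gene is its base mean, the authors' average of normalized read counts over the libraries of both genotypes. It holds no value per library, so it gives no error and no replicate spread. Nor does it give a difference between Kdm3 GLKD and control for RNA or 23- to 29-nt RNA. The base means of all genes sum to 19078513 normalized reads for embryo RNA, 34376209 for ovary RNA, 4688955 for ovary 23- to 29-nt RNA, and 142146 and 109515 for embryo 23- to 29-nt RNA at 0-2 h and 3-5 h. A base mean of 10, the level from which a gene is counted here, stands for 40 normalized reads over 4 embryo libraries or 60 over 6 ovary libraries. The tables were normalized separately, so levels set side by side across them are values, not tested differences.

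Promoter stretches of some named members, with and without the same start-site element, are shown first. Whether that element bears on the levels below was not tested. Each line gives the 100 bases before the annotated start, 5′ to 3′ on the strand of the gene, from the Release 6 genome, with TATAAA, the core of the TATA box, in capitals.
TwdlD (chr3R:26639925-26640024, plus strand): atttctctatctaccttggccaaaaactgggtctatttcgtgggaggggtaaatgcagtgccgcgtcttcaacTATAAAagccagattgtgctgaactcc
TwdlF (chr3R:4246920-4247019, plus strand): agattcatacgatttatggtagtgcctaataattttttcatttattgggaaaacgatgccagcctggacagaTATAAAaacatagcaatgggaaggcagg
TwdlG (chr3R:4251342-4251441, minus strand): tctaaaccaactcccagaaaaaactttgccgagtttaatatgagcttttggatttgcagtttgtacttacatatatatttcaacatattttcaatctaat
TwdlV (chr3R:4254608-4254707, plus strand): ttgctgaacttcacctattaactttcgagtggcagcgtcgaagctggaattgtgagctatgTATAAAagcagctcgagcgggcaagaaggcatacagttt
Lcp65Ag2 (chr3L:6133594-6133693, minus strand): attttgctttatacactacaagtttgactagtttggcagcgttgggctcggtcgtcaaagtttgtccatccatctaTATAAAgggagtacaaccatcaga
The element begins 27 bases before the start of TwdlD, 28 before TwdlF, 39 before TwdlV and 24 before Lcp65Ag2, and TwdlG holds none in this stretch. In the window of 250 bases before to 50 after the start, with TATAAA searched on both strands, 90 of 120 protein-coding members (75%) had a match, beside 45.8% of 13894 protein-coding genes. The share was 80% of the 25 protein-coding Twdl genes and 70% of the 70 Cpr genes. The letters AACCGGTT, searched on both strands as a form of the site bound by the epidermal factor grainy head, were in no member's window and in 0.756% of all windows.

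In embryo RNA at 3-5 h, 68 of the 123 members (55.3%) reached a base mean of 10, beside 61.6% of all genes. Their median base mean was 13.5, beside 42.8 for all genes, and their median per kb of gene span was 9.72, beside 18.9. The Twdl genes lay highest, with a median base mean of 83.7 and 19 of 26 genes at 10 or more. The Ccp84A genes followed with a median of 59.3 and 6 of 7 genes, while the Cpr genes had a median of 11.7 (36 of 70), the Edg genes 5.92 (1 of 3) and the Lcp genes 4.19 (6 of 17). Together the members held 0.0697% of the normalized reads on genes, of which 44.9% fell on the Twdl genes.

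A few members carried most of this level. The 10 highest held 71.0% of the members' base mean per kb, and only 7 members lay among the top 10% of all genes by that measure. The highest was Lcp65Ag2 (FBgn0020637), a larval cuticle protein gene, with 3914 per kb. Lcp65Ag1 followed with 1112 per kb, and then the Tweedle genes TwdlN with 925 and TwdlF with 876. Behind them came 2 genes of chitin-binding proteins, Cpr47Eg with 845 and Cpr65Ea with 798 per kb, and TwdlB with 767. The next in order were TwdlM with 556, TwdlD (FBgn0039444) with 493 and Cpr78Cc with 430 per kb. Cpr65Ax1 with 314, TwdlY with 264, Cpr64Ad with 225, TwdlW with 221 and TwdlL with 218 completed the first 15. No order among neighbours can be read from these values, since they carry no error. Of these 15 genes, 8 are Twdl, 5 Cpr and 2 Lcp genes. At the low end, 7 members were listed at 0, among them Cpr57A, Cpr62Ba and Cpr67Fb.

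Ovary RNA held little of these families. Only 8 members (6.50%) reached a base mean of 10, beside 59.2% of all genes, and 42 were listed at 0. The median base mean was 0.273, beside 40.0 for all genes. TwdlD was listed at 0 in ovary RNA and at 508 in embryo RNA. Of the 15 members highest in embryo RNA, 12 had an ovary base mean under 1. The highest in ovaries was Cpr51A with 76.0 per kb and a base mean of 202, beside 92.9 per kb and 246 in embryo RNA. Next per kb came Cpr67Fb, with an ovary base mean of 13.9 and a listing at 0 in embryos, and Cpr73D, with 246 in ovaries and 29.6 in embryos. Cpr60D had 9.37 in ovaries and 77.8 in embryos, and Twdlalpha 17.1 and 74.1. In all, 14 members, Cpr67Fb and Cpr73D among them, were listed higher per kb in ovary RNA than in embryo RNA.

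**Figure D1:**
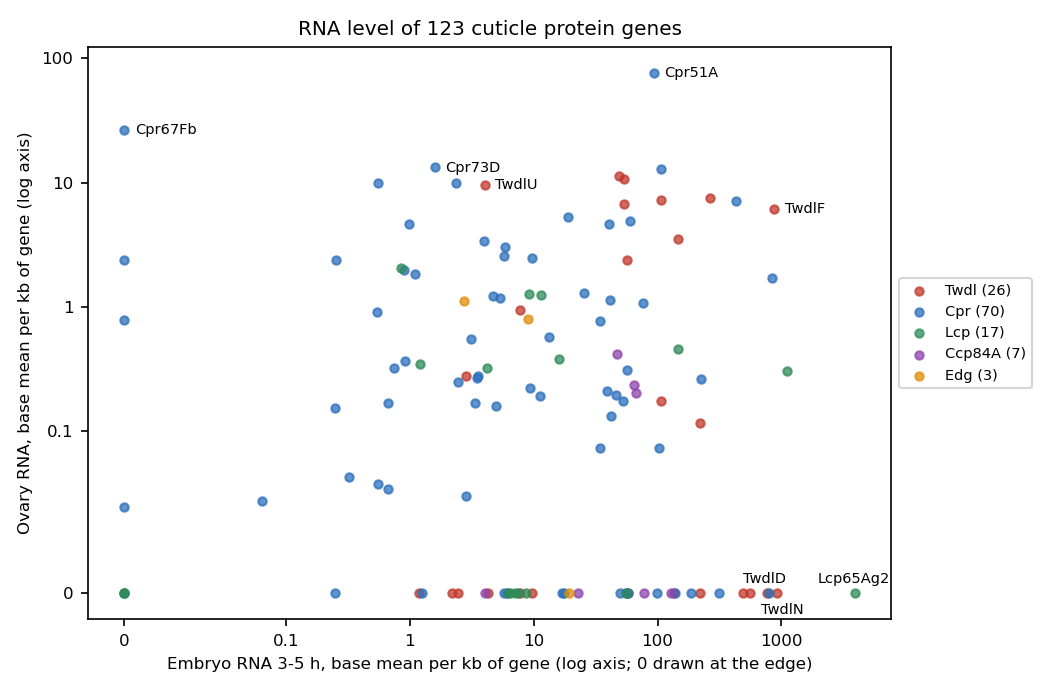
Each of the 123 points is a gene, with its base mean per kb of gene span in embryo RNA at 3-5 h on the x axis and in ovary RNA on the y axis (both log scales, with 0 at the edge), coloured by family. Lcp65Ag2, TwdlN and TwdlD, among the highest in embryos, sit along the bottom at 0 in ovaries, TwdlF lies higher at 6.14 per kb, and Cpr51A stands highest in ovaries at 76.0 per kb.

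Several of the ovary values lie on genes that share their span with another gene. Of the members, 21 overlap another annotated gene and 13 lie wholly inside one. Cpr51A overlaps CG30197, which had a base mean of 20.7 in ovaries and 27.4 in embryos, over 36.3% of its span. Cpr67Fb lies inside the antisense RNA asRNA:CR45171, which had a base mean of 42.7 in ovaries and 49.2 in embryos. Of the other members listed at 0 in embryo RNA, Cpr57A lies inside Obp57d, and Lcp65Ag3 inside asRNA:CR46005 (71.6 in embryos). Twdlalpha, TwdlX, TwdlY and TwdlZ lie on the opposite strand inside goe, whose base mean was 2677 in ovaries and 2798 in embryos. Cpr64Aa, Cpr64Ab, Cpr64Ac and Cpr64Ad lie wholly inside CG43367, which had 5051 in ovaries and 2309 in embryos. Of these, Cpr64Ad, among the 15 members highest in embryo RNA, lies on the same strand as CG43367. Cpr73D overlaps the odorant-binding protein gene Obp73a (125 in ovaries), the metabolic gene Ogdh (3118) and an annotated roo element. Whether reads of these neighbours entered the members' values was not tested.

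The members stand in 45 groups when neighbours up to 50 kb apart are joined, with 95 genes in 17 clusters of 2 or more and 28 alone. Levels within a cluster ranged widely. The cluster from TwdlM to TwdlD (chr3R:26619118-26641054) holds 12 Twdl genes and 24.8% of the members' summed embryo base mean. Its genes TwdlN (1006), TwdlB (838), TwdlM (615), TwdlD (508), TwdlL (233) and TwdlP (80.5) had embryo base means well above 10. The other 6, TwdlH (7.65), TwdlJ (3.92), TwdlR (3.16), TwdlO (1.98), TwdlS (1.90) and TwdlK (1.00), were all below it. High and low genes are interspersed along the cluster, and TwdlN stands between TwdlJ and TwdlH. In ovary RNA 10 of the 12 were listed at 0, with TwdlP at 0.133 and TwdlR at 0.311. The 7 Ccp84A genes and Edg84A form a second kind of cluster, with 6 genes at 10 or more, a median of 58.9 and none above the 101 of Ccp84Ad.

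**Figure D2:**
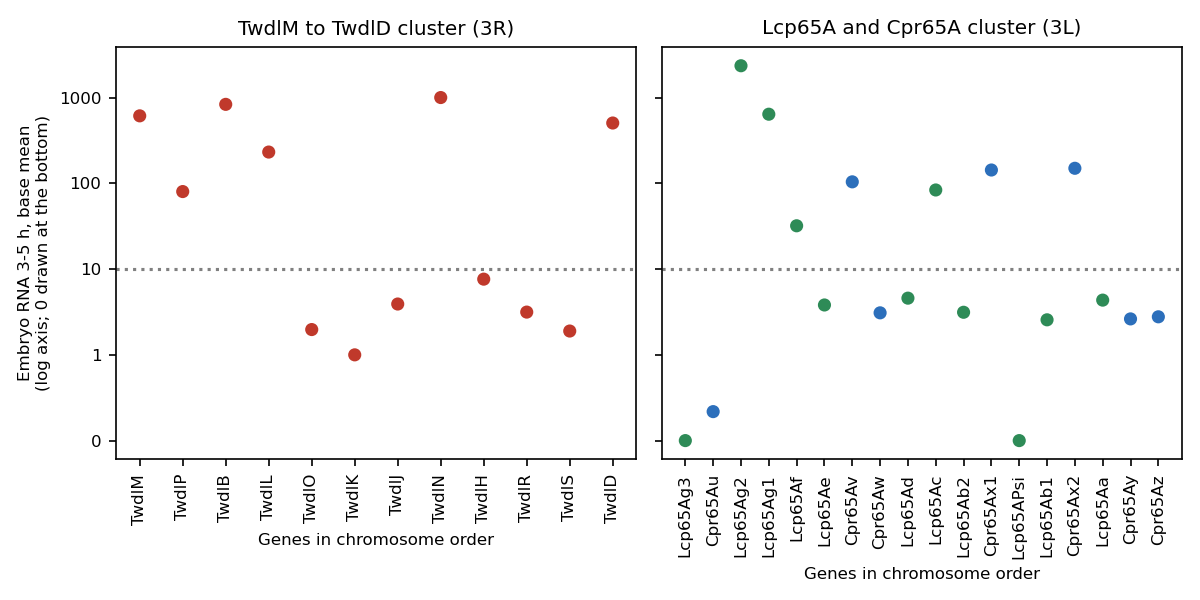
Embryo RNA base mean at 3-5 h (y axis, log scale, with 0 at the bottom) is shown for genes in chromosome order (x axis) in the TwdlM to TwdlD cluster on the left and the Lcp65A and Cpr65A cluster on the right, with the level of 10 dotted. In the left panel 6 genes lie between 80.5 and 1006 and 6 between 1.00 and 7.65. In the right panel 7 of 18 genes lie above 10.

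The Lcp65A and Cpr65A cluster (chr3L:6130386-6161589) is the largest, with 18 genes and 26.7% of the members' summed embryo base mean. Most of that sum is on copies that reads can hardly tell apart. Lcp65Ag2 had a base mean of 2364, Lcp65Ag1 643 and Lcp65Ag3 was listed at 0. Their coding sequences, 315 bases each, differ at 2 positions, and a stretch that holds both is shown 5′ to 3′ on the coding strand with the differing bases in capitals.
Lcp65Ag2 (chr3L:6133157-6133216): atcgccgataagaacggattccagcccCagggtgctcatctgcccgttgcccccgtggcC
Lcp65Ag1 (chr3L:6134838-6134897): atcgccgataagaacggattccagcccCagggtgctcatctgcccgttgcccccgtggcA
Lcp65Ag3 (chr3L:6130554-6130613): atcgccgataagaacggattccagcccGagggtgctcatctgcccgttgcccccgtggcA
The split of reads among the 3 genes is therefore uncertain, and their sum, a base mean of 3007, is the safer value. Of the 25-nt windows of their spans, 63.8% in Lcp65Ag2, 72.7% in Lcp65Ag1 and 65.2% in Lcp65Ag3 occur elsewhere in the genome.

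In all, 6 pairs of members shared at least 95% of their coding bases. Cpr65Ax1 (144) and Cpr65Ax2 (150) have identical coding sequences and near-equal embryo base means, and every 25-nt window of both occurs elsewhere. Lcp65Ab1 (2.57) and Lcp65Ab2 (3.14) are likewise identical. Cpr67Fa1 (70.6) and Cpr67Fa2 (42.0) are 96.5% identical. By contrast 52 members hold no 25-nt window that occurs elsewhere, and in TwdlD 0.497% of the windows do.

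Genes of other groups, taken from lists of textbook names, give the setting of the embryo values. Of 26 matched genes of other cuticle proteins 18 reached a base mean of 10 in embryos, and 10 in ovaries. The counts were 17 and 13 of 20 genes for chitin synthesis and remodelling, and 10 and 11 of 11 genes for hardening and pigmentation of the cuticle. In that order, the median embryo base means of these lists were 307, 218.5 and 36.3, beside 13.5 for the members. Per kb of gene span they were 22.9, 30.8 and 9.50, beside 9.72. All genes listed as epidermal transcription factors (15), early patterning (13), muscle (10) and neuronal genes (9) reached it in embryos. Their median base means there were 2098, 1838, 1655 and 655. In ovaries 12, 3, 10 and 8 of these genes reached it. The list names are loose, since the epidermal list includes EcR and usp, and the neuronal list includes repo. The 14 germline and eggshell genes had a median of 5704 in ovaries, where all reached 10, and of 4.82 in embryos, where 4 did.

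RNAs of 23 to 29 nt were scarce on most cuticle protein genes. Those that reached a base mean of 10 were 4 neighbouring Twdl genes in all 3 tables and, in ovaries alone, Cpr73D and Cpr51A. In ovaries 6 members (4.88%) reached a base mean of 10, beside 39.7% of all genes, and in embryos 4 members (3.25%) did at 0-2 h, beside 13.0%, and the same 4 at 3-5 h, beside 10.6%. The 4 are TwdlU, TwdlF, TwdlG and TwdlV, which lie side by side at chr3R:4243606-4255833, away from the larger Twdl cluster. TwdlV had base means of 29.2 at 0-2 h, 21.5 at 3-5 h and 57.1 in ovaries. TwdlU had 18.7, 16.7 and 44.2, TwdlF 16.9, 12.3 and 36.8, and TwdlG 13.4, 13.8 and 43.4 in the same order. At 0-2 h the next member, Cpr30F, had 0.857, and at 3-5 h TwdlO had 1.28. The Twdl family thus held 96.5% of the members' embryo 23- to 29-nt reads at 0-2 h and 90.9% at 3-5 h.

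In ovaries the highest member was Cpr73D with 1100, which was 80.6% of the members' summed base mean in that table, and it was listed at 0 in both embryo tables. Its overlapping neighbour Obp73a had 2654. In Cpr73D 49.0% of the 25-nt windows occur elsewhere in the genome, and the roo element spans 48.9% of the gene, so reads of that element cannot be told apart here from reads of the gene. Cpr51A, with 11.0, was the other Cpr gene at 10 or more.

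**Figure D3:**
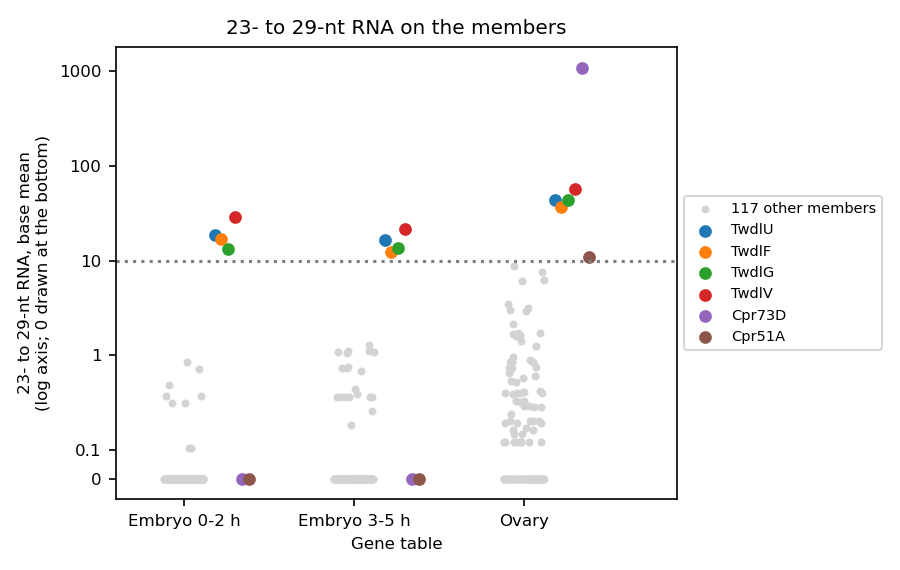
The base mean of 23- to 29-nt RNA (y axis, log scale, with 0 at the bottom) is shown for each member in the embryo tables at 0-2 h and 3-5 h and in the ovary table (x axis), with the level of 10 dotted. TwdlU, TwdlF, TwdlG and TwdlV lie at or above 12.3 in all 3 tables, and Cpr73D, at 1100 in ovaries, is at 0 in embryos.

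The same 4 genes differ among themselves in RNA. In embryo RNA TwdlF had a base mean of 1133, TwdlG 278, TwdlV 60.1 and the pseudogene TwdlU 7.69. In ovary RNA they lay closer together, at 7.94, 18.9, 7.53 and 18.3 in that order. The neighbouring gene CG14644, which lies between TwdlG and TwdlV, had 1.91 in embryo RNA and 67.6 in ovary 23- to 29-nt RNA. Or82a, an odorant receptor gene beyond TwdlV, had 2.29 and 38.8. High 23- to 29-nt RNA along this stretch was thus found on genes with high and with low embryo RNA.

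ChIP-seq of ovaries asks where H3K9me2, H3K9me3 and Rhino were enriched in each genotype. Each of the 6 lists of peaks stands for 1 antibody in 1 genotype, with no value per library, so a peak present in one list and absent from the other is a difference between lists and was not tested. The Kdm3 GLKD lists are the longer ones, with 9564 H3K9me2, 5282 H3K9me3 and 1882 Rhino peaks, against 3983, 2946 and 467 peaks in control sisters. Members are short, with a median span of 0.957 kb, beside 1.71 kb for all genes, and a shorter gene meets fewer peaks.

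H3K9me2 peaks overlapped 28 members in Kdm3 GLKD ovaries (22.8%) and 8 in control sisters (6.50%). Over all 17620 genes placed on an arm, 35.8% did in Kdm3 GLKD and 16.2% in control sisters. A peak in Kdm3 GLKD and none in control sisters was found for 20 members (16.3%), beside 22.9% of all genes. No member had a peak only in control sisters, beside 3.34% of all genes. Some peaks reached several members at once, while Cpr50Cb alone held 3 peaks, and the 20 members rest on 18 peaks. The H3K9me2 peaks on members in Kdm3 GLKD had fold enrichments between 1.31 and 1.93. Their median was 1.55, beside 1.56 over all peaks of that list. With peaks of at least 2-fold enrichment alone, no member had H3K9me2 in Kdm3 GLKD and 1 (Cpr11B) had it in control sisters, beside 3.33% and 7.59% of all genes. For H3K9me3, 10 members (8.13%) had a peak in Kdm3 GLKD and 2 (1.63%) in control sisters, beside 17.4% and 11.0% of all genes, and 9 had one in Kdm3 GLKD alone (7.32%), beside 9.05% of all genes. Rhino peaks overlapped 4 members in Kdm3 GLKD and none in control sisters (3.25%), beside 2.98% of all genes that had one in Kdm3 GLKD alone. The share of members with Rhino in Kdm3 GLKD alone was close to that of all genes, and the shares for both histone marks were below it. A window of 250 bases before to 50 after the start has the same length for every gene. Histone mark shares in Kdm3 GLKD alone were there close to those of all genes. In it 18 members (14.6%) had H3K9me2 in Kdm3 GLKD alone, beside 12.4% of all genes, and 4 (3.25%) had H3K9me3, beside 2.87%. For Rhino 1 member (0.813%) did, beside 1.49%. Counted whether or not control sisters had a peak, H3K9me2 in Kdm3 GLKD was in the window of 17.1% of members, beside 17.4% of all genes. For H3K9me3 the shares were 4.07% and 6.12%. In control sisters the window held H3K9me2 in 2.44% of members, beside 12.5% of all genes, and H3K9me3 in 0.813%, beside 6.62%.

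**Figure D4:**
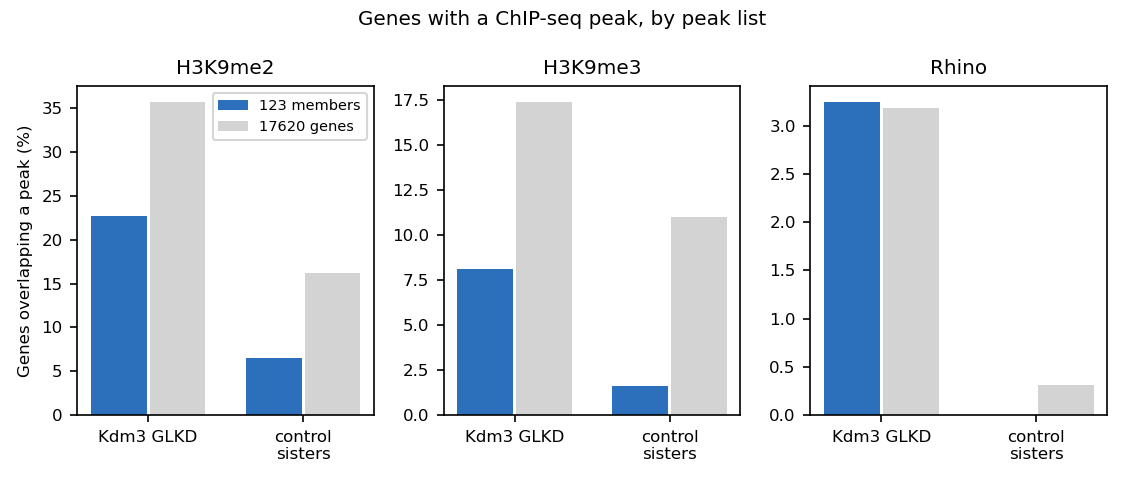
Bars give the percentage of genes that overlap a peak (y axis) of H3K9me2, H3K9me3 and Rhino, in Kdm3 GLKD ovaries and control sisters (x axis), for the 123 members in blue and all 17620 placed genes in grey. For both histone marks the blue bar is below the grey one in each genotype, and for Rhino no member has a peak in control sisters.

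The members with Rhino were the 4 genes that also reached a base mean of 10 for 23- to 29-nt RNA in every table. Rhino fold enrichment in Kdm3 GLKD was 2.34 at TwdlV, 2.09 at TwdlF, 1.96 at TwdlG and 1.71 at TwdlU, and no Rhino peak of control sisters lay within 2 kb of the locus. They are 4 of the 34 members on 3R, where 2.18% of all genes had Rhino in Kdm3 GLKD alone, and they are neighbours within 12.2 kb, not separate cases. A single H3K9me2 peak of 18027 bp in Kdm3 GLKD (fold 1.93, −log10 q 9.03) covered TwdlF, TwdlG and TwdlV whole and 58.2% of TwdlU. In control sisters an H3K9me2 peak of 1199 bp (fold 1.49, −log10 q 3.43) lay on TwdlV alone. For H3K9me3, a Kdm3 GLKD peak of 8656 bp (fold 2.01) covered TwdlF and TwdlG whole and 83.7% of TwdlV, a second of 610 bp (fold 1.46) lay on TwdlU, and control sisters had none at these genes. In the window of 250 bases before to 50 after the start, TwdlV alone had Rhino, and the Rhino peaks of TwdlF began downstream of its start.

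**Figure D5:**
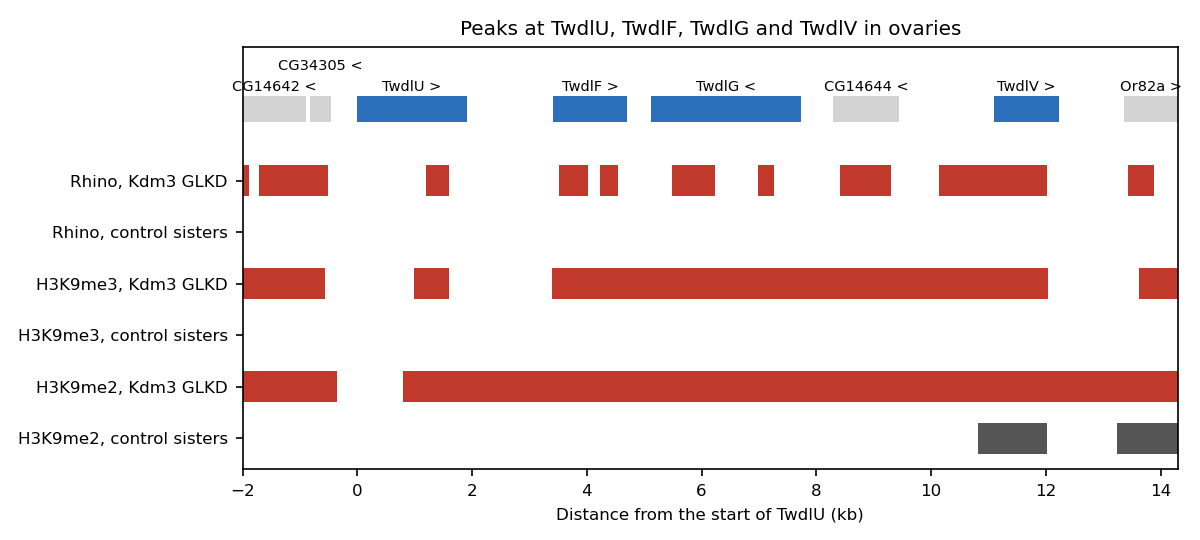
Bars map the peaks of each list along the TwdlU to TwdlV locus, by distance from the start of TwdlU in kb (x axis), with Kdm3 GLKD in red above control sisters in dark grey for each antibody, Twdl genes in blue and other genes in light grey (> plus strand, < minus strand). Rhino and H3K9me3 have peaks in Kdm3 GLKD alone, and H3K9me2 in control sisters has a 1199-bp peak at TwdlV and another beyond it.

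The X chromosome held the other group of Twdl genes with peaks in Kdm3 GLKD alone. H3K9me2 overlapped TwdlX, TwdlY and TwdlZ through 1 peak (fold 1.86) and Twdlalpha through another (fold 1.84) in Kdm3 GLKD, each gene being covered whole, and control sisters had none there. H3K9me3 peaks in Kdm3 GLKD lay on Twdlalpha (fold 2.03), TwdlX (1.55) and TwdlY (1.45) and not on TwdlZ. With Cpr11A, 5 of the 8 members on the X had H3K9me2 in Kdm3 GLKD alone, beside 44.1% of all genes on the X. For H3K9me3 the members were 5 of 8, Cpr11B included, beside 28.2%. TwdlX, TwdlY, TwdlZ and Twdlalpha are neighbours within 13.3 kb, all inside goe, and not separate cases. These counts therefore cannot be read as a share of independent genes. Cpr11B had H3K9me2 in both genotypes (fold 1.89 in Kdm3 GLKD and 2.06 in control sisters). No Rhino peak lay on these genes, and their 23- to 29-nt base means in ovaries were 1.71 or lower.

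Cpr73D went the other way. H3K9me2 covered 1.21% of its span in Kdm3 GLKD (fold 1.72) and 42.6% in control sisters (fold up to 1.385). Cpr73D was the only member with H3K9me3 in control sisters alone, on 12.0% of its span (fold 1.42), beside 2.62% of all genes. The roo element spans 48.9% of this gene, and 49.0% of its 25-nt windows occur elsewhere in the genome. Whether reads of that element entered these peaks was not tested. Cpr51A had both marks in both genotypes, with H3K9me2 fold enrichment of 1.78 in Kdm3 GLKD and 1.73 in control sisters, and H3K9me3 of 1.40 and 1.33. All 12 genes from TwdlM to TwdlD and all 18 of the Lcp65A and Cpr65A cluster overlapped no peak of any antibody in either genotype. Most genes of these arms had none of the commonest mark either. H3K9me2 in Kdm3 GLKD overlapped 24.3% of all genes on 3R and 33.2% on 3L, and in control sisters 12.7% and 12.75%. Each cluster is a single stretch of short neighbouring genes, not separate cases.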

How the data were processed

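Values came from 5 gene tables and 6 peak lists. Per the study's methods, reads were aligned to whole gene sequences (release 6.36) with Bowtie and counted, and the authors normalized the counts with DESeq2. The deposited base mean, a signal value, is the authors' mean over both genotypes. The tables' other columns hold the authors' own fold changes, standard errors and p-values and were not used. No per-sample column was left unused (0). 23- to 29-nt reads were counted after reads of structural RNAs were removed. UMI-tools is named for small RNA. The ovary 23- to 29-nt sum exceeds the unique mappers of any one library in the study's list, so a read may be counted on more than 1 gene. For ChIP-seq, per the submitters' processing notes, BWA 0.7.17.4, Picard 2.18.2.1 and MACS2 2.1.1.20160309.6 were used on dm6. The deposited peak lists give fold enrichment (a ratio) and −log10 q, called by the authors at q 0.05 (broad cutoff 0.1 for the histone marks, narrow peaks for Rhino). How libraries were combined is not given in the sources used here.

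Coordinates came from Ensembl release 115 (Release 6, as dm6); 65 listed genes were not placed, none of them a member. Base means were divided by gene span in kb, and a gene was counted from a base mean of 10. A gene had a peak from 1 bp of overlap. Coding identity was over the longer sequence, and 25-nt windows were searched on the chromosome arms. No statistical test was possible or run, since the files hold no value per library. Functions were tested on simulated data (Python 3.11.15, pandas 2.3.3, numpy 2.4.6). Named genes were TwdlD, the 15 highest members per kb in embryo RNA and 5 in ovary RNA, the 3 highest in each 23- to 29-nt table, members with a Rhino peak, the 3 largest folds per histone mark in Kdm3 GLKD, near-identical pairs and members of groups of 5 or fewer; others were named after their values were seen. The members and lists were chosen with earlier results of these data known. Protein sequences were not used here. hfp GLKD libraries and the single Kdm3 GLKD and control libraries were not analysed here.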

Additional observations from a re-analysis of the deposited data

How the results depend on the processing

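No paired analysis was possible because the tables hold 1 value per gene over both genotypes and the peak lists 1 list per genotype; leaving out a replicate was not possible for the same reason. Checks on protein sequences were not run, and coding sequences or protein-coding members took their place. Setting the minimum at a base mean of 1, 100 or above 0 in place of 10 gave 106, 27 and 116 members in embryo RNA (68 at 10), 37, 2 and 81 in ovary RNA (8 at 10), 22, 1 and 70 in ovary 23- to 29-nt RNA (6 at 10), 4, 0 and 13 in embryo 23- to 29-nt RNA at 0-2 h, and 10, 0 and 24 at 3-5 h (4 at 10 in both). Cpr genes alone gave 36, 5, 2, 0 and 0 of these members, and Twdl genes alone 19 in embryo RNA and 3 in ovary RNA. The median per kb over members above 0 was 14.7 in embryo RNA (9.72 over all members) and 0.799 in ovary RNA (0.213 over all members).

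Of the peak settings, at least 50% of the span covered left 18 members with H3K9me2 in Kdm3 GLKD and 2 in control sisters, 0 with H3K9me3 in control sisters, and 2 with Rhino in Kdm3 GLKD, both in Kdm3 GLKD alone. The window of 250 bases before to 50 after the start left 3 with H3K9me2 in control sisters (2.44%, beside 12.5% of all genes), 5 with H3K9me3 in Kdm3 GLKD (4.07%, beside 6.12%) and 1 in control sisters (0.813%, beside 6.62%), and 1 with Rhino, in Kdm3 GLKD alone. In that window 18 members had H3K9me2 and 4 H3K9me3 in Kdm3 GLKD alone, shares close to those of all genes, where over whole spans they were below. Counted whether or not control sisters had a peak, the window's H3K9me2 share in Kdm3 GLKD was 17.1%, beside 17.4% of all genes. A −log10 q of at least 5 left 13 with H3K9me2 in Kdm3 GLKD and 2 in control sisters, 11 in Kdm3 GLKD alone; for H3K9me3 it left 4 in Kdm3 GLKD, all in Kdm3 GLKD alone, and 0 in control sisters. A fold enrichment of at least 2 left 0 members with H3K9me2 in Kdm3 GLKD and 1 in control sisters, with 0 in Kdm3 GLKD alone, 4 with H3K9me3 in Kdm3 GLKD (all alone there) and 0 in control sisters, and 2 with Rhino in Kdm3 GLKD (both alone there). Fewer peaks or less overlap is what each setting imposes. The members' H3K9me2 peaks in Kdm3 GLKD thus rest on folds between 1.31 and 1.93. Their median of 1.55 was close to the 1.56 of the whole list.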

Other observations

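Beyond the Twdl locus, low levels of 23- to 29-nt RNA in ovaries stood on scattered members. Cpr50Cb had a base mean of 8.90, Edg84A, an ecdysone-dependent gene, 7.58, Cpr72Ec 6.30 and Cpr78Cc 6.08, while the members' median was 0.149. Cpr72Ec was also among the members higher in ovary RNA (14.4) than in embryo RNA (3.40). TwdlT, which lies wholly inside the neuropeptide receptor gene RYa-R on the same strand, was listed at 0 in ovary 23- to 29-nt RNA, while RYa-R had 2910.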
